A study of Mus musculus with 5 samples.

Results

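The genes described are the 10 genes of the BCL2 family of cell death that were listed by symbol: the survival genes Bcl2, Bcl2l1 and Mcl1, the pore formers Bax and Bak1, and the BH3-only genes Bcl2l11, Bbc3, Pmaip1, Hrk and Bid. They were taken from the deposited counts by exact match of the gene symbol, and each symbol matched a single entry among 55385 genes. RNA of the hippocampus was measured after seizures, and the comparisons ask how these genes stood 1 h, 4 h and 8 h after seizure onset. All libraries came from the hippocampus of male C57/bl6 mice aged 3 months. The control was untreated, and the other mice received kainic acid (20 mg/kg, injected into the peritoneum), an agonist of a class of glutamate receptors that provokes seizures. There was 1 library each for the control, 1 h and 8 h, and there were 2 libraries for 4 h, here called library 1 and library 2. Animals were used once they reached a set seizure stage, with continuous rearing and falling, so milder seizures are not represented. No vehicle-injected library was sequenced among those used here, so the injection itself cannot be told apart from kainic acid. Neither the labels nor the methods say that each library is a single mouse, or that the 4 h libraries are from separate mice. The p-values below therefore measure only the spread between those libraries, which may be technical.

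Proteins of the BCL2 family decide whether the outer membrane of mitochondria is breached during apoptosis. BAX and BAK form the pore through which cytochrome c leaves. BCL2, BCL-XL (the product of Bcl2l1) and MCL1 hold the pore formers in check, and BH3-only proteins bind the survival proteins or activate the pore formers directly. In neurons, several BH3-only genes are known to be controlled at the level of transcription, and MCL1 protein and RNA are known to turn over quickly.

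Gene counts summed to between 16612225 and 19109204 per library. Reads on no annotated gene made up 24.7% of the control and up to 33.1%, in library 1 of 4 h. All 6 activity-induced genes listed as a check of the stimulus (Fos, Fosb, Arc, Npas4, Egr1 and Nr4a1) were higher after 1 h than in the control. Both 4 h libraries stood apart in their own way. Library 2 had 93 counts of Npas4 against 78 in the control and 2189 in library 1, and the summed level of 4 choroid plexus markers was 26.9 normalized CPM (counts scaled to a common library total) in library 1, against 1646 to 4155 in the others. Where a log2 fold change against the control after 4 h is printed below for a member or another gene, it is therefore given with and without each library. Each listed marker of neurons, the dentate gyrus, astrocytes, oligodendrocytes, microglia, endothelium and blood was detected in every library. The summed level in normalized CPM ranged from 5352 to 6429 for 6 neuron markers. It was 2975 in the control, 3720 after 1 h, 3510 and 4524 after 4 h and 2990 after 8 h for 4 oligodendrocyte markers, 1116 in the control and 1188 to 1712 after seizures for 5 astrocyte markers, 234 to 265 for 5 microglia markers, 70.8 to 115 for 4 endothelial markers and 108 to 226 for 4 blood markers. Some of these sums join markers that went opposite ways, and others do not. The 4 oligodendrocyte markers all had positive log2 fold changes after 1 h and 4 h. The 4 blood markers all had negative ones after 1 h and positive ones after 4 h and 8 h. Without library 1, those of Hba-a1 and Hba-a2 after 4 h turned negative. At an adjusted p under 0.05, 0 markers were called (quasi-likelihood test of edgeR). At an unadjusted p under 0.05, dentate markers aside, the test found 0 after 1 h. After 4 h it found the neuron markers Rbfox3 (log2 fold change -0.53, or -0.53 without library 1 and -0.54 without library 2) and Gad1 (0.80, or 0.57 and 1.01), the astrocyte markers Gfap (1.32, or 1.21 and 1.43), Aqp4 (0.55, or 0.41 and 0.68) and Aldh1l1 (0.46, or 0.39 and 0.53), the oligodendrocyte marker Mobp (0.62, or 0.81 and 0.40) and the microglia marker P2ry12 (-1.003, or -0.84 and -1.19). After 8 h it found Gfap (1.41) and Gja1 (-0.98) of the astrocyte list and Pecam1 (0.99) of the endothelial list. Over all genes tested, 2.42%, 11.6% and 4.51% met that unadjusted p after 1, 4 and 8 h. The part of the marker differences in the values of the members was not tested. In RNA from whole tissue, fewer cells of a type and less RNA per cell cannot be told apart.

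The RefSeq promoters (300 bases, from 250 before to 50 from the start site, GRCm38.p6) of 4 of these genes are shown: Mcl1, the survival gene that differed most from the control, and the BH3-only genes Hrk, Bcl2l11 and Bbc3, which were at least 1.5-fold from the control in at least 1 library. The promoter of Pmaip1 was not used here. Positions are counted from 0 at the start site. In the Mcl1 promoter (chr3:95658471-95658770, plus strand) and the Hrk promoter (chr5:118169514-118169813, plus strand) the capitals mark the reverse complement of TGACG, the core of the cAMP response element (CRE). In a Bcl2l11 promoter (chr2:128125788-128126087, plus strand) and a Bbc3 promoter (chr7:16310011-16310310, plus strand) the capitals mark the FOXO motif GTAAACA or its reverse complement. These promoters of Bcl2l11 and Bbc3 were shown because they hold it. Another Bcl2l11 promoter (chr2:128127325-128127624, plus strand) and 2 others of Bbc3 had no match to it and are not shown.
Mcl1: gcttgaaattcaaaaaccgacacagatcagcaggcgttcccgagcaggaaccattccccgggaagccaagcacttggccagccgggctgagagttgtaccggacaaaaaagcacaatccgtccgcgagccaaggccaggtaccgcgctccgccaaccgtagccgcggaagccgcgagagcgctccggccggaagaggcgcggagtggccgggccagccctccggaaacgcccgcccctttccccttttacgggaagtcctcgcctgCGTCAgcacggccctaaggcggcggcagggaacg
Hrk: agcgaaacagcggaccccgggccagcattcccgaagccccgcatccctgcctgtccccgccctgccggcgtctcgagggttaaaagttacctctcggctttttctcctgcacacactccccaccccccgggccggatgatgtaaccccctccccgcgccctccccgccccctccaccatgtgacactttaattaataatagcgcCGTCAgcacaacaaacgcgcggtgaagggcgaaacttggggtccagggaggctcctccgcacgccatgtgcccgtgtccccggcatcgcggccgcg
Bcl2l11: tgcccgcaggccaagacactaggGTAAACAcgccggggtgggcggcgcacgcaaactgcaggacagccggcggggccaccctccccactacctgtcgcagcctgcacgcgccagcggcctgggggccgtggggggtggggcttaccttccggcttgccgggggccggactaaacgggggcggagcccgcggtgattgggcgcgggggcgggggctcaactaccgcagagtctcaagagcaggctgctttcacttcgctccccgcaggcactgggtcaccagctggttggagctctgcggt
Bbc3: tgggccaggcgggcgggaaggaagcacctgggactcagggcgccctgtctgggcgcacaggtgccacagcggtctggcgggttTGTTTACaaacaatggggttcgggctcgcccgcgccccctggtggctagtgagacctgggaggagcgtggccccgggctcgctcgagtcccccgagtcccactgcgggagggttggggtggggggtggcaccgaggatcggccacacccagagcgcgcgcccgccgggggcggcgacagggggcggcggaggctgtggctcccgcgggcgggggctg

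The marked letters lie at 16 to 20 in Mcl1, at -46 to -42 in Hrk, at -227 to -221 in Bcl2l11 and at -167 to -161 in Bbc3. In all, 14 promoters of 9 members were searched on both strands. TGACG was found in 4 of them, in Bbc3, Bcl2, Hrk and Mcl1, or 28.6%, against 20.8% of all 32851 promoters of the same length. GTAAACA was found in 2, in Bbc3 and Bcl2l11, or 14.3% against 3.65% of all. The E-box CACGTG was found in 2 promoters, those of Bax and Bbc3 (14.3% against 7.15%), and the GC box GGGCGG in 10 (71.4% against 35.7%). The GC content of the promoters searched ran from 49.3% to 78%, against a median of 52.7% over all promoters. The Bbc3 windows chr7:16310011-16310310 and chr7:16310181-16310480 overlap, so some GC boxes were counted in both. The part of GC content and overlap in these shares was not tested. There was no match in these windows for the whole CRE (TGACGTCA, which contains TGACG, in 1.79% of all promoters), the AP-1 motif TGANTCA (7.81%), the STAT motif TTCNNNGAA (8.30%), the EGR motif GCGTGGGCG (0.612%) or the CArG box (1.63%). A match describes letters in the sequence and is not evidence that a factor binds there.

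Compared per length of exon, so that genes can be set beside each other, the untreated hippocampus held Mcl1 (16.2 normalized CPM per kb) and Bcl2l1 (16.1) at the highest levels of the 10 genes. Hrk (7.48) and Bax (6.08) followed, then Bak1 (2.88), Bid (2.63) and Bcl2 (2.17), and last Bbc3 (0.874), Bcl2l11 (0.538) and Pmaip1 (0.331). Counting intervals overlapped between Mcl1 and Bcl2l1, between Hrk and Bax, and between every pair of neighbours in that order from Bak1 to Bcl2 and from Bbc3 to Pmaip1. After seizures Mcl1 stood alone at the top in each library. Its level per kb was 1.01 times that of Bcl2l1 in the control, 3.12 times after 1 h, 3.79 and 2.29 times after 4 h and 1.85 times after 8 h.

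**Figure D1:**
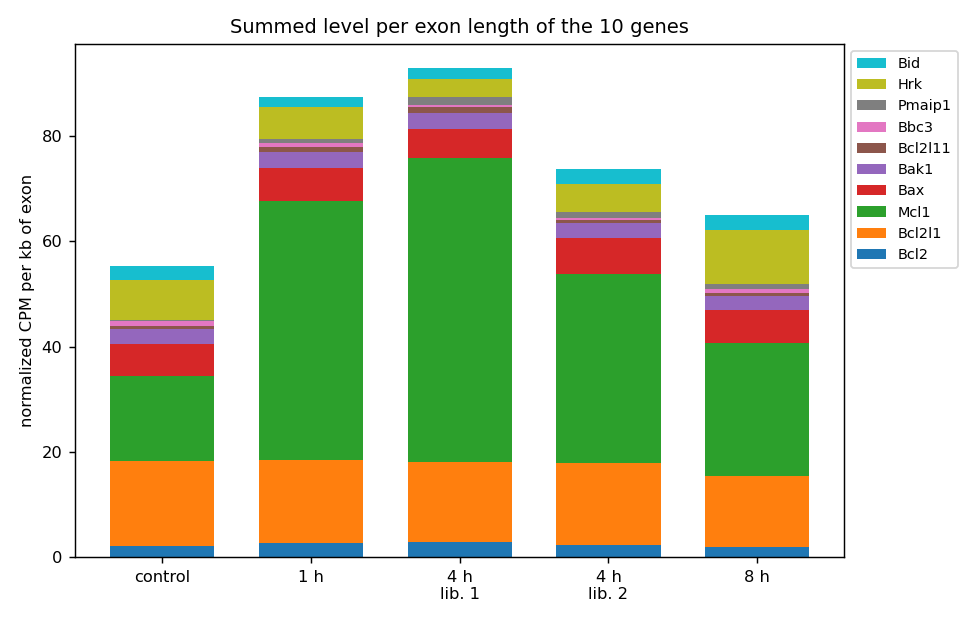
Normalized CPM per kb of exon (vertical axis) of the 10 genes, stacked for each of the 5 libraries (horizontal axis, lib. 1 and lib. 2 being the 4 h libraries). Mcl1 made up 29.3% of the summed level in the control and 62.1% in library 1 of 4 h, while Hrk made up 13.5% and 3.52%.

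Summed by role, the 3 survival genes made up 62.3% of the level per kb in the control, 77.5% after 1 h, 81.7% and 73.1% after 4 h and 62.6% after 8 h. The 5 BH3-only genes made up 21.4%, 11.9%, 9.04%, 13.7% and 23.7% in the same order. The summed level of the BH3-only genes itself was 11.9 normalized CPM per kb in the control, 10.4 after 1 h, 8.39 and 10.1 after 4 h and 15.4 after 8 h, and Hrk was the largest part of it in each library. The pore formers together stayed between 8.56 and 9.69 normalized CPM per kb. The share of the survival genes was above the control after 1 h and in both 4 h libraries, highest in library 1, and after 8 h it lay close to that of the control. These sums describe RNA per exon length and weigh each gene by its abundance.

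Across the 10 genes, the quasi-likelihood test of edgeR, adjusted by Benjamini-Hochberg, called 0 members at each time point. It called 0% of the 19768 genes tested after 1 h, 0.00506% after 4 h (1 gene, listed as ETV3L) and 0% after 8 h. All 10 members passed the expression filter. With an unadjusted p under 0.05 the same test found 1 member after 1 h (Mcl1), where 2.42% of all genes tested met it, 3 members after 4 h (Mcl1, Pmaip1 and Hrk), where 11.6% did, and 0 members after 8 h, where 4.51% did. DESeq2 called 1 member after 1 h, 1 after 4 h and 0 after 8 h at an adjusted p under 0.05, against 0.308%, 1.63% and 0.189% of the genes to which it gave an adjusted p.

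By size alone, 3 members (Mcl1, Pmaip1 and Bcl2l11) were at least 1.5-fold above the control after 1 h, against 10.9% of all genes tested. After 4 h, Mcl1 and Pmaip1 were so in both libraries, against 10.1% of all genes, and after 8 h the same 2 genes were, against 14.1%. In the other direction, 0 members were at least 1.5-fold below the control after 1 h (9.2% of all genes), 1 member, Bbc3, was in both 4 h libraries (6.28%), and 0 were after 8 h (8.95%). The median log2 fold change of the members was 0.04, 0.04 and 0.03 after 1, 4 and 8 h, beside -0.01, 0.01 and 0.01 over all genes tested.

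**Figure D2:**
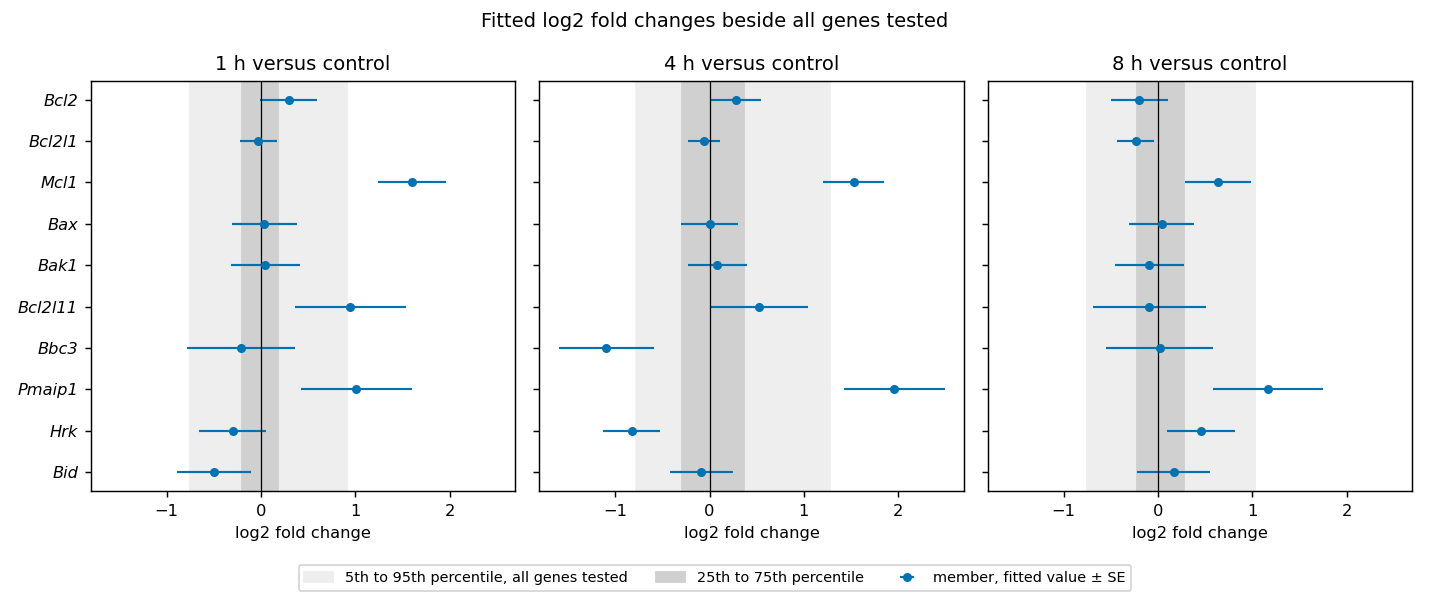
Fitted log2 fold change against the control (horizontal axis) of each of the 10 genes (rows) after 1, 4 and 8 h; points with bars are fitted values ± SE, and grey bands span the 5th to 95th and the 25th to 75th percentile of all genes tested. Pmaip1 lies to the right of the wide band at each time, Mcl1 after 1 h and 4 h, and Bcl2l11 just beyond it after 1 h, while Hrk and Bbc3 lie to its left after 4 h.

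Among the survival genes, Mcl1 was the member with the largest difference from the control after 1 h. Mcl1 (ENSMUSG00000038612.16, chr3:95658788-95663176 of GRCm38, plus strand, 2 annotated transcripts) encodes a short-lived survival protein. It had 1104 counts in the control, 2960 after 1 h, 3322 in library 1 and 2322 in library 2 of 4 h, and 1510 after 8 h, or 55.4, 168, 197, 123 and 86.0 normalized CPM. Every library after seizures lay above the control, with the highest values after 1 h and in library 1 of 4 h and the lowest after 8 h. Relative to the control, the ratio was 3.04 after 1 h (95% counting interval 2.83 to 3.26), 3.56 (3.32 to 3.81) and 2.21 (2.06 to 2.38) after 4 h, and 1.55 (1.44 to 1.68) after 8 h. The 4 h libraries differed 1.61-fold from each other, less than either differed from the control.

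The fitted log2 fold change of Mcl1 was 1.60 (SE 0.36) after 1 h, 1.53 (SE 0.32) after 4 h and 0.63 (SE 0.35) after 8 h, with adjusted p = 1, 0.276 and 1.00 and unadjusted p = 0.00522, 0.00422 and 0.124 (quasi-likelihood test of edgeR, Benjamini-Hochberg adjusted). After 1 h, 1.55% of all genes tested had a log2 fold change as high. DESeq2 and a fit without a filter on low counts called Mcl1 after 1 h (adjusted p = 0.0344 and 7.31e-09), and the adjusted p over 6 alternatives reached 1. After 4 h those and normalization to library size alone called it, with adjusted p between 6.09e-10 and 0.343 over 7 alternatives. Without library 1 the log2 fold change after 4 h was 1.14, and without library 2 it was 1.83. Between 4 h and 8 h the log2 difference was -0.89 (SE 0.31, unadjusted p = 0.0322, adjusted p = 0.544, quasi-likelihood test of edgeR), and the 8 h library lay below both 4 h libraries and above the control.

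Bcl2l1 (ENSMUSG00000007659.18, chr2:152780668-152831728 of GRCm38, minus strand, 9 annotated transcripts) encodes BCL-XL, a survival protein of adult neurons, and a shorter splice form that promotes death; the counts join all its transcripts. The gene had 1468 counts in the control, 1272 after 1 h, 1177 and 1360 after 4 h and 1097 after 8 h, or 73.7, 72.3, 69.8, 71.8 and 62.5 normalized CPM. The control, 1 h and 4 h libraries lay close together, and the 8 h library was the lowest. Against the control, the ratio was 0.848 after 8 h (95% counting interval 0.784 to 0.918), and it was 0.981 after 1 h and 0.948 and 0.975 after 4 h. Log2 fold changes were -0.03 (SE 0.19), -0.06 (SE 0.17) and -0.24 (SE 0.19) in order of time (adjusted p = 1, 0.917 and 1.00, quasi-likelihood test of edgeR). The value after 4 h was -0.04 without library 1 and -0.08 without library 2.

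Bcl2 (ENSMUSG00000057329.7, chr1:106538178-106714274 of GRCm38, minus strand, 2 annotated transcripts) is the founding survival gene of the family. Its counts were 396 in the control, 429 after 1 h, 458 and 400 after 4 h and 304 after 8 h, or 19.9, 24.4, 27.2, 21.1 and 17.3 normalized CPM. It was highest in library 1 of 4 h and lowest after 8 h, and library 2 of 4 h lay near the control. The ratio to the control was 1.23 after 1 h (95% counting interval 1.07 to 1.41) and 1.37 in library 1 of 4 h (1.19 to 1.57), and the log2 fold changes were 0.29 (SE 0.30) after 1 h, 0.28 (SE 0.26) after 4 h and -0.20 (SE 0.30) after 8 h. The adjusted p was 1, 0.705 and 1.00 (quasi-likelihood test of edgeR). The value after 4 h was 0.09 without library 1 and 0.45 without library 2. Exons of an antisense gene, D630008O14Rik, lie over 6.09% of its exon length.

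**Figure D3:**
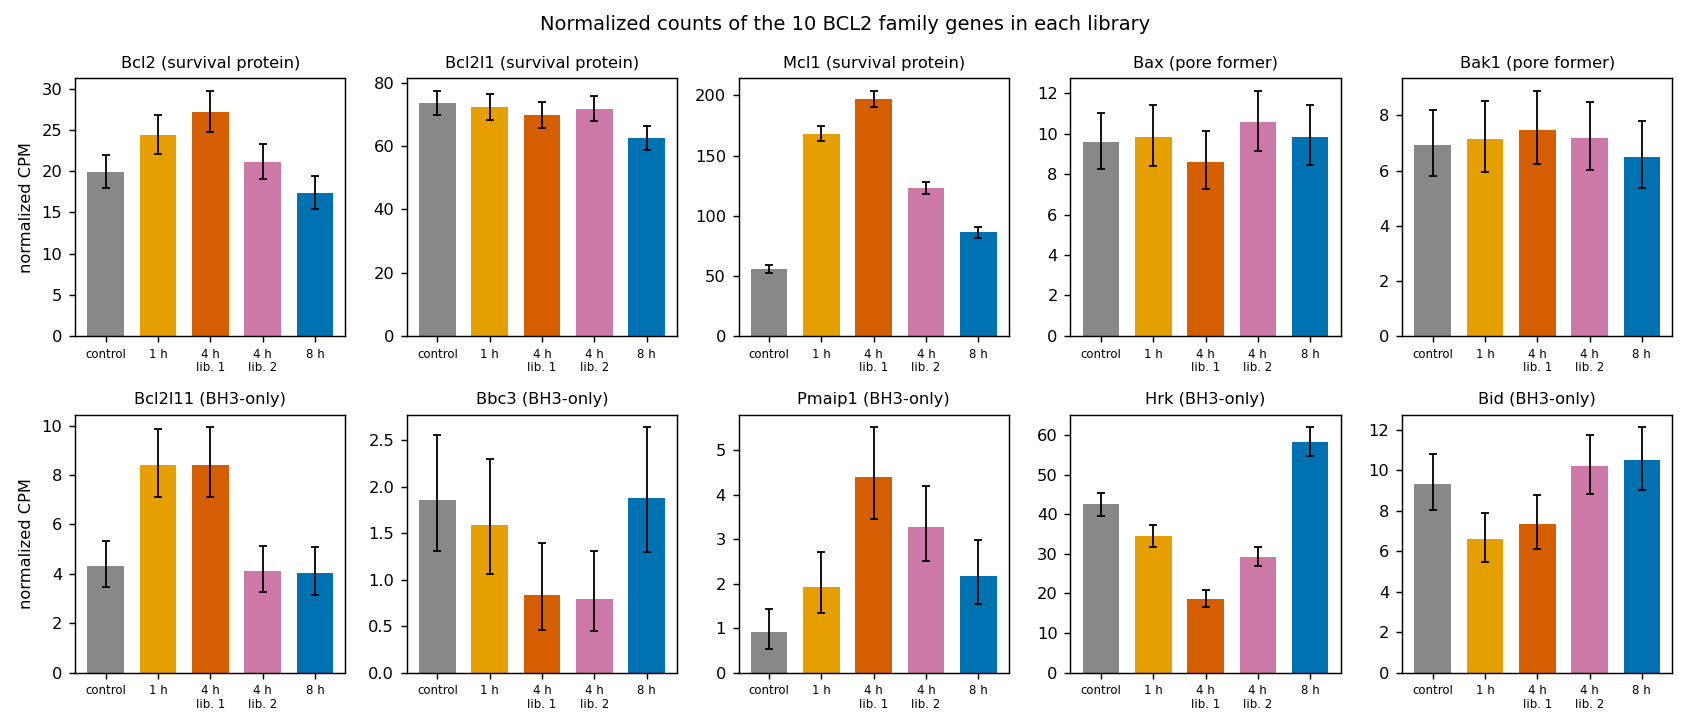
Normalized CPM (vertical axes, each starting at 0) of the 10 genes in the 5 libraries (bars); whiskers are exact Poisson 95% intervals and cover counting error only. Mcl1 stood between 86.0 and 197 normalized CPM after seizures against 55.4 in the control, while Hrk ran from 18.6 in library 1 of 4 h to 58.2 after 8 h.

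The counts of the pore formers, the genes whose products breach the mitochondrial membrane, differed little between libraries. Bax (ENSMUSG00000003873.11, chr7:45461697-45466898 of GRCm38, minus strand) had 191 counts in the control, 173 after 1 h, 145 and 200 after 4 h and 173 after 8 h, or 9.59, 9.83, 8.60, 10.6 and 9.86 normalized CPM. Its log2 fold changes were 0.04 (SE 0.34) after 1 h, 0.00 (SE 0.30) after 4 h and 0.04 (SE 0.34) after 8 h (adjusted p = 1, 1.00 and 1.00, quasi-likelihood test of edgeR), and their sign turned after 1 h and 4 h under other settings. After 4 h it was 0.14 without library 1 and -0.15 without library 2. All 4 counting intervals of the ratio to the control included 1. The gene model Gm45808 shares 12.2% of the exon length of Bax on the same strand, and reads there may have gone to neither gene.

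Bak1 (ENSMUSG00000057789.14, chr17:27019810-27029009 of GRCm38, minus strand) had 138 counts in the control, 126 after 1 h, 126 and 136 after 4 h and 114 after 8 h, or 6.93, 7.16, 7.47, 7.18 and 6.49 normalized CPM. The libraries after seizures lay on both sides of the control within counting error. Log2 fold changes were 0.05 (SE 0.36), 0.08 (SE 0.31) and -0.09 (SE 0.36) after 1, 4 and 8 h, with adjusted p = 1, 0.938 and 1.00 (quasi-likelihood test of edgeR), and those after 1 h and 4 h turned negative with library size alone. Without library 1 the value after 4 h was 0.05, and without library 2 it was 0.11. Small changes of the pore formers were not detectable with SEs of this size, and their likeness to the control is not shown by these p-values. Exons of Ggnbp1 lie opposite 25.5% of the exon length of Bak1, and whether the counting used the strand is not given in the sources used here.

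Among the BH3-only genes, Pmaip1 had the largest ratio to the control. Pmaip1 (ENSMUSG00000024521.8, chr18:66458533-66465565 of GRCm38, plus strand) encodes NOXA, a BH3-only protein that binds chiefly MCL1 and is a known target of p53. It had 18 counts in the control, 34 after 1 h, 74 and 62 after 4 h and 38 after 8 h, or 0.903, 1.93, 4.39, 3.28 and 2.16 normalized CPM. All 4 libraries after seizures lay above the control, both 4 h libraries above those of 1 h and 8 h, and the counts were low throughout. Relative to the control, the ratio was 2.14 after 1 h (95% counting interval 1.17 to 4.02), 4.86 (2.87 to 8.65) and 3.63 (2.12 to 6.51) after 4 h, and 2.40 (1.33 to 4.46) after 8 h.

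The log2 fold change of Pmaip1 was 1.01 (SE 0.59) after 1 h, 1.96 (SE 0.53) after 4 h and 1.17 (SE 0.59) after 8 h. The adjusted p was 1, 0.326 and 1.00 and the unadjusted p 0.117, 0.00966 and 0.0796 (quasi-likelihood test of edgeR, Benjamini-Hochberg adjusted). A fit without a filter called it after 4 h, where the adjusted p ran from 0.0141 to 0.530 over 7 alternatives. The 4 h libraries differed 1.34-fold, with a counting interval of 0.944 to 1.91 that included 1. Left with library 2 alone, the value after 4 h was 1.74, and with library 1 alone it was 2.15. Per kb, Mcl1 exceeded Pmaip1 in each library, 49.0-fold in the control, 69.6-fold after 1 h, 35.9-fold and 29.9-fold after 4 h and 31.8-fold after 8 h.

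Hrk was lower than the control after 1 h and 4 h and higher after 8 h. Hrk (ENSMUSG00000046607.6, chr5:118164648-118189478 of GRCm38, plus strand, 2 annotated transcripts) encodes Harakiri, a BH3-only protein found largely in neurons that binds BCL-XL and BCL2. It had 846 counts in the control, 606 after 1 h, 313 and 554 after 4 h and 1022 after 8 h, or 42.5, 34.4, 18.6, 29.3 and 58.2 normalized CPM. Library 1 of 4 h was the lowest of all 5, library 2 lay between it and the 1 h library, and the 8 h library was the highest. Against the control, the ratio was 0.811 after 1 h (95% counting interval 0.730 to 0.901), 0.437 (0.383 to 0.498) and 0.689 (0.618 to 0.768) after 4 h, and 1.37 (1.251 to 1.504) after 8 h.

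The log2 fold change of Hrk was -0.30 (SE 0.36) after 1 h, -0.82 (SE 0.30) after 4 h and 0.45 (SE 0.36) after 8 h, with adjusted p = 1, 0.408 and 1.00 (quasi-likelihood test of edgeR, Benjamini-Hochberg adjusted). After 4 h the unadjusted p was 0.0384, a fit without a filter called the gene, and the adjusted p ran from 0.0188 to 0.570 over 7 alternatives. Without library 1 the value after 4 h was -0.54 and without library 2 it was -1.19. The difference between 8 h and 4 h was larger than either comparison with the control, at 1.28 on the log2 scale (SE 0.30, unadjusted p = 0.00667, adjusted p = 0.466, quasi-likelihood test of edgeR). In that contrast Hrk and Mcl1 were the 2 members with an unadjusted p under 0.05, against 8.73% of all genes tested, and 0% passed the adjusted threshold. Normalized counts of Hrk after 8 h were 3.14 times those of library 1 and 1.99 times those of library 2.

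Markers of dentate granule cells moved with Hrk in part. Of 3 listed markers, C1ql2 had 584 counts in the control, 491 after 1 h, 186 and 221 after 4 h and 1019 after 8 h. Dsp had 1437, 1162, 73, 257 and 1201 counts in the same order, and Prox1 had 1194, 1181, 2889, 2263 and 1351. Thus C1ql2 and Dsp were lowest after 4 h, as Hrk was, while Prox1 was highest there, and none of the 3 was at 0. After 4 h the log2 fold change was -1.36 for C1ql2 (-1.32 without library 1 and -1.40 without library 2). It was -2.99 for Dsp (-2.40 and -4.02) and 1.28 for Prox1 (0.995 and 1.51). Their unadjusted p was 0.000918, 0.00265 and 0.00404, with adjusted p = 0.245, 0.259 and 0.275 (quasi-likelihood test of edgeR). After 8 h the value was 0.98 for C1ql2 (unadjusted p = 0.00892, adjusted p = 0.922, same test), and Dsp had 68.4 normalized CPM against 72.1 in the control. The summed level of the 3 ranged from 145 to 203 normalized CPM, and their part in the values of Hrk was not tested. Per kb, the ratio of Mcl1 to Hrk was 2.17 in the control, 8.11 after 1 h, 17.6 and 6.96 after 4 h and 2.45 after 8 h.

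**Figure D4:**
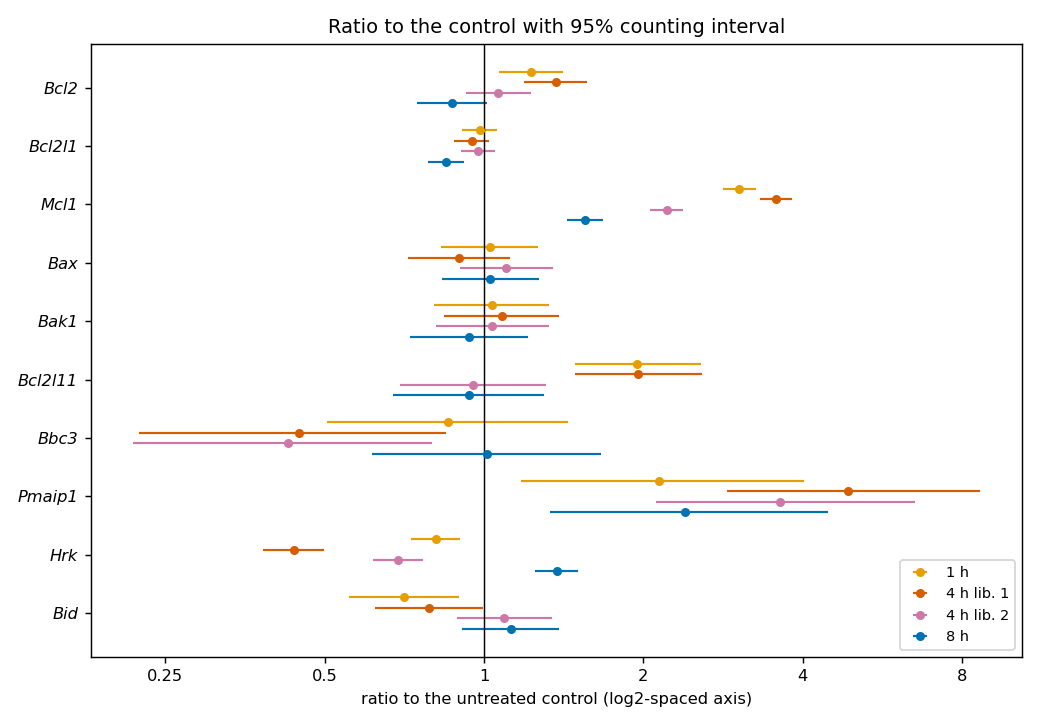
Ratio of normalized counts to the untreated control (horizontal axis, log2-spaced) for the 10 genes (rows) in each library after seizures (colours), with exact binomial 95% counting intervals. Mcl1 and Pmaip1 lie right of 1 in all 4 libraries, Hrk lies left of 1 after 1 h and 4 h and right of it after 8 h, and Bcl2l11 is at 1.95 after 1 h and in library 1 of 4 h and near 1 in the others.

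Bbc3 (ENSMUSG00000002083.13, chr7:16308393-16318205 of GRCm38, plus strand, 4 annotated transcripts) encodes PUMA, which binds all survival proteins of the family and is a known target of p53 and FOXO factors. It had 37 counts in the control, 28 after 1 h, 14 and 15 after 4 h and 33 after 8 h, or 1.86, 1.59, 0.831, 0.792 and 1.88 normalized CPM. Both 4 h libraries were below the others, and the 8 h library was level with the control. The ratio to the control after 4 h was 0.447 (95% counting interval 0.223 to 0.847) in library 1 and 0.427 (0.218 to 0.796) in library 2. The log2 fold change was -0.21 (SE 0.57) after 1 h, -1.09 (SE 0.50) after 4 h and 0.02 (SE 0.57) after 8 h, with adjusted p = 1, 0.444 and 1.00 and an unadjusted p of 0.0601 after 4 h (quasi-likelihood test of edgeR). The 4 h libraries differed 1.05-fold, and leaving out either one left the value between -1.13 and -1.06. After 8 h the normalized counts were 2.26 and 2.37 times those of the 4 h libraries (log2 difference 1.11, SE 0.51, unadjusted p = 0.0588, adjusted p = 0.592, quasi-likelihood test of edgeR).

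Bcl2l11 was the member on which the 4 h libraries differed most. Bcl2l11 (ENSMUSG00000027381.16, chr2:128126038-128162547 of GRCm38, plus strand, 8 annotated transcripts) encodes BIM, a BH3-only protein that binds all survival proteins and is a known target of FOXO factors. It had 86 counts in the control, 148 after 1 h, 142 in library 1 and 78 in library 2 of 4 h, and 71 after 8 h, or 4.32, 8.41, 8.42, 4.12 and 4.04 normalized CPM. The 1 h library and library 1 of 4 h shared a high level, and library 2 of 4 h and the 8 h library lay at the level of the control. The ratio to the control was 1.95 after 1 h (95% counting interval 1.48 to 2.57), 1.95 (1.48 to 2.58) and 0.955 (0.694 to 1.31) after 4 h, and 0.937 (0.675 to 1.30) after 8 h. Library 1 had 2.04 times the normalized counts of library 2 (1.54 to 2.73).

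The fitted log2 fold change of Bcl2l11 was 0.94 (SE 0.59) after 1 h, 0.53 (SE 0.52) after 4 h and -0.09 (SE 0.60) after 8 h (adjusted p = 1, 0.713 and 1.00, quasi-likelihood test of edgeR). After 4 h it became -0.07 without library 1 and 0.95 without library 2, so its sign rests on library 1. Npas4 and Fos also separated these libraries, with 2189 and 8743 counts in library 1 and 93 and 1331 in library 2, beside 12204 and 17563 after 1 h. Whether the difference in Bcl2l11 follows the state of these activity-induced genes was not tested.

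Bid (ENSMUSG00000004446.12, chr6:120891930-120916853 of GRCm38, minus strand) encodes a BH3-only protein that is activated when caspase-8 cuts it. It had 186 counts in the control, 116 after 1 h, 124 and 193 after 4 h and 184 after 8 h, or 9.34, 6.59, 7.36, 10.2 and 10.5 normalized CPM. The 1 h library and library 1 of 4 h were below the control, and the others were slightly above it. Relative to the control, the ratio was 0.706 after 1 h (95% counting interval 0.555 to 0.895) and 0.788 in library 1 of 4 h (0.623 to 0.994). Log2 fold changes were -0.49 (SE 0.39), -0.09 (SE 0.33) and 0.17 (SE 0.39) after 1, 4 and 8 h, with adjusted p = 1, 0.937 and 1.00 (quasi-likelihood test of edgeR). The value after 4 h was 0.13 without library 1 and -0.34 without library 2. Exons of Bcl2l13 lie opposite 17.7% of the exon length of Bid.

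The other 15 listed genes of the family gave no call at an adjusted p under 0.05 and 0 genes at an unadjusted p under 0.05 (quasi-likelihood test of edgeR), and 9 of them were tested. After 1 h the largest positive log2 fold change was that of Bmf (0.59), a BH3-only gene, and the most negative was that of Bcl2l12 (-1.01), which had 25 counts in the control and 10 after 1 h. After 4 h they were Bcl2l15 (0.97, or 0.41 without library 1 and 1.38 without library 2, on at most 14 counts) and Bad (-0.72, or -0.53 and -0.94, unadjusted p = 0.0504), and after 8 h the same Bcl2l15 (0.91) and Bad (-0.44). Bad encodes a BH3-only protein held inactive by phosphorylation. It had 331 counts in the control, 145 and 217 after 4 h and 214 after 8 h.

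Downstream of the family, the 17 listed genes of the apoptosome, the caspases and their inhibitors were all tested, and 0 were called, with an unadjusted p under 0.05 for 0 after 1 h and for 0 after 8 h (quasi-likelihood test of edgeR). Casp9, the initiator caspase of the apoptosome, had 386 counts in the control, 290 after 1 h, 171 and 251 after 4 h and 237 after 8 h. Its log2 fold change was the most negative of the list after 4 h (-0.72, unadjusted p = 0.0441, adjusted p = 0.420, quasi-likelihood test of edgeR; -0.54 without library 1 and -0.93 without library 2) and after 8 h (-0.52). After 1 h Casp8 was the most negative (-0.60), and Birc5 was the most positive after 1 h and after 8 h, on 3 to 11 counts.

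Of the 13 listed transcription factors known to act on members, 0 were called, and an unadjusted p under 0.05 with a positive log2 fold change was found for 3 after 1 h (Jun, Atf4 and Stat3), 4 after 4 h (these and Myc) and 0 after 8 h (quasi-likelihood test of edgeR). Jun, an AP-1 factor linked to transcription of Hrk and Bcl2l11 in stressed neurons, had the largest after 1 h (1.97) and after 4 h (1.89, or 1.34 without library 1 and 2.30 without library 2), with 959 counts in the control, 3333 after 1 h, 3989 and 2309 after 4 h and 805 after 8 h. The most negative were Trp73 after 1 h (-0.29), Mef2d after 4 h (-0.43, or -0.33 and -0.55) and Foxo1 after 8 h (-0.77), and Trp73 was the most positive after 8 h (0.66). Of all genes tested, 2.42%, 11.6% and 4.51% met that unadjusted p in the same test after 1, 4 and 8 h, in either direction.

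The 9 listed p53 targets outside the family also gave 0 calls, with an unadjusted p under 0.05 for 1 after 1 h (Cdkn1a), 3 after 4 h (Cdkn1a, Mdm2 and Sesn2) and 1 after 8 h (Cdkn1a), all with a positive log2 fold change. Cdkn1a, which encodes the cell cycle inhibitor p21, had the largest at each time point (2.38, 3.80 and 1.70, adjusted p = 1, 0.242 and 1.00, quasi-likelihood test of edgeR), with 54 counts in the control, 256 after 1 h, 874 and 500 after 4 h and 159 after 8 h. The value after 4 h was 3.23 without library 1 and 4.20 without library 2. The most negative were Gtse1 after 1 h (-0.04) and 8 h (-0.52) and Ccng1 after 4 h (-0.12, or -0.09 without library 1 and -0.15 without library 2). Trp53 itself had 155 counts in the control, 149 after 1 h, 93 and 141 after 4 h and 182 after 8 h. Among all genes tested, an unadjusted p under 0.05 was met by 2.42%, 11.6% and 4.51% after 1, 4 and 8 h. The 6 activity-induced genes ranged in log2 fold change from 2.88 (Egr1) to 7.43 (Npas4) after 1 h, from 1.15 (Egr1) to 5.36 (Fosb) after 4 h, where without library 1 they ranged from 0.03 (Nr4a1) to 4.06 (Fosb) and without library 2 from 1.76 (Egr1) to 6.04 (Fosb), and from -0.65 (Nr4a1) to 1.44 (Fosb) after 8 h.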

How the data were processed

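Stranded hippocampal libraries of total RNA were sequenced as 125-bp pairs by the authors, who deposited a count of reads per gene for each library. Per the submitters' processing notes, STAR 2.5.1b, HTSeq and GRCm38.p4 were used. Annotation release and strand setting: not given in the sources used here. Rows that name no gene (reads on no gene 24.7% to 33.1%, ambiguous 1.26% to 1.52%, not unique 9.67% to 11.6%) were left out of library sizes.

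Counts were normalized by TMM and tested with edgeR 4.0.16 (R 4.3.3; filterByExpr; quasi-likelihood test; prior count 2; Benjamini-Hochberg adjustment over 19768 genes) in one fit of the 4 conditions. Its 1 residual degree of freedom comes from both 4 h libraries (biological coefficient of variation 0.238), and the single libraries were assumed to vary like these. Over all genes tested, their log2 ratio varied with an SD of 0.656. Intervals of counts are exact Poisson, and those of ratios are exact binomial (Clopper-Pearson), at 95%. They cover counting error only, as a read is not an independent molecule. A count of 3 corresponds to 0.151 to 0.178 normalized CPM.

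Positions and exon lengths (all exons of a gene joined) were taken from GENCODE M21, which holds 55144 of the 55385 identifiers, and promoters from RefSeq (GRCm38.p6). All 10 members were named. Of each pathway list, the counts in each direction and the genes with the most positive and most negative log2 fold change were given. A result that this rule names is not reported here. The values of Trp53 and of the dentate markers were added after they were seen. Members and lists were chosen with earlier results of these data known. Contrasts between time points were added after seeing the data. The alternatives tried were RLE (median-of-ratios) factors, sizes without factors, no filter, DESeq2 1.42.0, limma-voom 3.58.1, another prior count, other fold thresholds and leaving out each library at 4 h (for genes that are no members, added after seeing the data) and, also added then, that of 1 h or 8 h. The scripts were tested on simulated data.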

Additional observations from a re-analysis of the deposited data

Results flagged for a closer look

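Hrk was picked out because its difference from the control had opposite directions at different time points, with the counting interval of each library lying wholly on one side of the control. It was below the control at 1 h and in both libraries at 4 h and above it at 8 h. The value at 8 h exceeded that at 1 h by 0.76 on the log2 scale (SE 0.36, unadjusted p = 0.0850, adjusted p = 0.865) and that at 4 h by 1.28 (SE 0.30, unadjusted p = 0.00667, adjusted p = 0.466), both by the quasi-likelihood test of edgeR, Benjamini-Hochberg adjusted over all genes tested. Neither difference passed the adjusted threshold. The 8 h library stands above all 4 others, and it has no replicate.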

How the results depend on the processing

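Of 180 log2 fold changes of the members recomputed with a test, over 30 comparisons, 165 kept their direction and their side of the adjusted threshold, 7 passed it only under the alternative, and 7 changed sign. The 180 include 30 values under the other prior count, which changes the printed log2 fold change but not p. Those 30 could not change their side of the threshold. The 20 values at 4 h with either library left out had no test, and 3 of them changed sign. Sign changes concerned Bax at 1 h (-0.036 with library size alone), Bax at 4 h (-0.12 with library size alone, -0.013 without a filter, -0.0021 with DESeq2, -0.0014 with limma-voom, and -0.15 to 0.14 when each library at 4 h was left out), Bak1 with library size alone (-0.025 at 1 h, -0.043 at 4 h), and, with each library at 4 h left out, Bcl2l11 (-0.065 to 0.95) and Bid (-0.34 to 0.13). Library size alone moved the median of all genes at 4 h by -0.12. Bbc3 at 4 h had a log2 fold change of -1.20 with DESeq2, which gave it no adjusted p.

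The number of genes called, 0, 1 and 0 at 1, 4 and 8 h, became 57, 237 and 22 with library size alone, 285, 1300 and 279 without a filter, and 50, 234 and 33 with DESeq2, while limma-voom and median-of-ratios factors called 0 at 4 h. The cause was not tested. At a fold threshold of 2 instead of 1.5, the members counted as higher at 8 h fell from 2 to 1. At a fold threshold below 1.5, 1 member counted as lower at 1 h and 2 did at 4 h. With library size alone, 2 members were at least 1.5-fold lower at 4 h. At 1.5-fold, leaving out each library at 4 h gave 1 to 2 lower and 2 to 3 higher there. Shares of all genes tested are not given for these alternatives, so whether these counts exceed such shares cannot be told. Without the 1 h library the remaining fit called 4 genes at 4 h and 1 at 8 h, and without the 8 h library 1 at 1 h and 5 at 4 h, with 0 members among them. These fits were chosen after seeing the data, share the libraries of each comparison with the full fit and so bear on the test more than on the values; Bax at 4 h became -0.014 and -0.013. The control cannot be left out of a comparison with it. No paired analysis was possible because only the 4 h condition has a replicate number beyond 1. Low counts limit Pmaip1 and Bbc3 most.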
